A study of Triticum turgidum subsp. durum with 20 samples.

Results

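This comparison sets terminal spikelet (W3.5) apices of the durum wheat cultivar Kronos against double ridge (W2) apices, using the 8 libraries labelled W3.5 or W2 out of 20 libraries in all. The members were chosen by their stage label, 4 libraries each. W2 is named double ridge in one place and early double ridge in another by the sources used here, so stages are given below by their labels. Only gene models of the A genome, the B genome and unanchored scaffolds were considered. The W3.5 group consisted of pools of about 12 hand-dissected apices per library and the W2 group of pools of about 20. Both stages came from the same tetraploid genotype (genomes AABB), grown in long days, which carries the spring VRN-A1 allele with a deletion in intron 1, the photoperiod allele Ppd-A1a and the semi-dwarfing allele Rht-B1b, so each of these alleles is shared by both groups. The other 12 libraries (W1, W3.0 and W3.25) stayed out of every fit unless stated.

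At the double ridge stage the wheat apex has become an inflorescence meristem and forms paired ridges, of which the upper gives rise to a spikelet meristem. At terminal spikelet the last spikelet has formed, which fixes the number of spikelets on the spike, while florets in the oldest spikelets are forming organ primordia. MADS-box transcription factors control much of this sequence. AP1/SQUA members such as VRN1 promote the reproductive transition, SVP members act in the early meristem, and B-class members such as PISTILLATA specify lodicules and stamens in the floret.

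Raw read counts per gene model summed to 23758607 to 29655553 per library at W3.5 and to 22229388 to 25715962 at W2, so depth overlapped between the stages. The 100 most abundant gene models took 7.51% to 7.66% of the counts at W3.5 and 8.62% to 8.74% at W2. Low-confidence gene models took 6.56% to 6.76% at W3.5 and 6.18% to 6.35% at W2. On the log2 scale of counts per library total (CPM), the first principal component held 70.7% of the variance of the 8 libraries and separated the stages without overlap. Across genes, which are not independent replicates, Pearson's r was 0.987 to 0.990 over 12 pairs of libraries within a stage and 0.944 to 0.957 over 16 pairs between the stages. No single library stood apart from its stage, but the W2 libraries were spread on the second component, which held 6.12% of the variance. W2 replicates 1 and 2 scored 20.3 and 28.2 there, and W2 replicates 3 and 4 scored -17.9 and -32.3. The W3.5 replicates 1 to 4 scored 2.89, -1.38, -18.2 and 18.4. The cause of this spread was not tested. Apices of the reproductive stages should express LFY, VRN1 and AP1-A3, and all did at both stages, as described below.

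Of 190381 gene models, 45051 had enough counts to be tested, and 12944 of these (28.7%) differed between W3.5 and W2. A gene model was called when the quasi-likelihood test of edgeR and the Wald test of DESeq2 moved it in the same direction, each with an adjusted p (Benjamini-Hochberg) of 0.01 or less. Transcript levels were higher at W3.5 for 5572 gene models (12.4% of those tested) and lower at W3.5 for 7372 (16.4%). These shares depend on how libraries are scaled. The main scaling, the trimmed mean of M-values (TMM) in edgeR and size factors in DESeq2, put the median log2 fold change of all tested gene models at 0.01. Scaling by library totals alone moved that median to 0.10 and gave 8849 gene models higher and 5377 lower at W3.5, so that most calls were then rises (62.2% instead of 43%). All fold changes below are on the main scale. Levels are given as TPM, transcript abundance relative to gene span and to the library's sum, which behaves like totals, and the median log2 ratio of mean TPM between W3.5 and W2 was 0.16.

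Most changes were small. The median absolute log2 fold change was 0.53 among gene models higher at W3.5 and 0.52 among those lower, and 6998 of the 12944 called gene models (54.1%) changed by less than 1.5-fold. A change of at least 2-fold was found for 1478 gene models higher and 2153 lower at W3.5, and a change of at least 10-fold for 132 higher and 171 lower. The W3.5 and W2 libraries did not overlap in TMM-scaled log2 CPM for 12419 of the called gene models, against 39.0% of all tested. The gene models lower at W3.5 included much of the abundant RNA. They held 35.3% to 36.5% of all TPM in the W3.5 libraries and 44.1% to 45.2% in the W2 libraries, whereas those higher at W3.5 held 10.8% to 11.1% in the W3.5 libraries and 6.86% to 7.1% in the W2 libraries. Because whole apices were pooled, fewer cells of a type and less RNA per cell cannot be told apart in any of these values.

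The AP1/SQUA genes responded unequally. AP1-A3 (TraesCS2A02G261200, chromosome 2A from 411943192 to 411950517) had 31.9, 30.9, 30.7 and 30.7 TPM in the W3.5 libraries and 5.70, 5.87, 7.97 and 7.97 TPM in the W2 libraries. All W3.5 libraries were thus well above all W2 libraries, with a log2 fold change of 2.03 with an SE of 0.0866 (edgeR, adjusted p = 7.43e-12). The gene model labelled AP1-B1 in the network of the study, taken here as VRN-B1 (TraesCS5B02G396600, 5B from 573802883 to 573816070), had 24.8, 24.6, 23.4 and 24.8 TPM at W3.5, against 10.1, 9.38, 13.4 and 12.9 TPM at W2. It rose by a log2 fold change of 0.95 with an SE of 0.0864 (edgeR, adjusted p = 1e-07). The A-genome copy of this gene, VRN-A1 (TraesCS5A02G391700, 5A from 587411454 to 587423416), carries the spring allele in Kronos. It had 23.3, 21.7, 21.3 and 23.3 TPM at W3.5 and 24.3, 21.5, 21.6 and 21.6 TPM at W2, so the stages overlapped in TPM. In TMM-scaled log2 CPM, however, every W3.5 library lay below every W2 library. VRN-A1 differed by -0.14 on the log2 scale with an SE of 0.0464, short of the threshold (edgeR, adjusted p = 0.0235). LFY (TraesCS2B02G464200, 2B from 658198754 to 658202018), a plant-specific regulator of floral meristem identity, had 24.1, 24.9, 21.96 and 27.6 TPM at W3.5 and 10.9, 13.1, 10.8 and 14.4 TPM at W2. The stages did not overlap and the log2 fold change was 0.85 with an SE of 0.0897 (edgeR, adjusted p = 5.76e-07).

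The named genes with known roles in floret organs rose. PI-A1 (TraesCS1A02G264300, 1A from 459946840 to 459948904), a PISTILLATA-like B-class gene, had 32.5, 34.8, 37.9 and 27.6 TPM at W3.5 and 5.74, 5.86, 5.25 and 4.69 TPM at W2, a log2 fold change of 2.48 with an SE of 0.0992 (edgeR, adjusted p = 3.4e-12). Its B-genome copy, PI-B1 (TraesCS1B02G275000, 1B from 482450864 to 482455256), had 7.45, 8.45, 8.69 and 6.97 TPM at W3.5 and 1.97, 1.96, 1.66 and 2.06 TPM at W2, a log2 fold change of 1.89 with an SE of 0.101 (edgeR, adjusted p = 1.27e-10). Both copies were therefore already detected in every W2 library, at 95 to 125 counts for PI-A1 and 65 to 89 counts for PI-B1. Since 2 other gene models overlap the PI-B1 span, its counts leave out the reads shared with them. MADS32 belongs to a MADS-box clade with a role in floral organ identity in rice. Its A copy MADS32-A1 (TraesCS3A02G284400, 3A from 513428784 to 513430811) had 173, 178, 160 and 157 TPM at W3.5, against 26.1, 29.2, 43.0 and 29.4 TPM at W2 (log2 fold change 2.24 with an SE of 0.104, adjusted p = 2.07e-11 in edgeR). MADS32-B1 (TraesCS3B02G318300, 3B from 513254002 to 513256449) had 43.1, 43.5, 41.4 and 39.96 TPM at W3.5, against 5.01, 6.09, 8.68 and 5.45 TPM at W2, and its log2 fold change of 2.59 with an SE of 0.106 (edgeR, adjusted p = 4.38e-12) was the largest of the named MADS-box genes. In W2 replicate 3 both MADS32 copies were higher than in the other W2 libraries.

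SVP-B2 (TraesCS7B02G080300, 7B from 90189439 to 90195307) was the only called MADS-box gene of the 8 named that moved the other way. It had 8.30, 7.14, 8.41 and 9.38 TPM at W3.5 and 44.2, 39.4, 35.3 and 36.3 TPM at W2, a log2 fold change of -2.37 with an SE of 0.0728 (edgeR, adjusted p = 1.44e-13). Of the 8 named MADS-box genes 6 were higher at W3.5, 1 was lower and 1 (VRN-A1) was not called, against 12.4% higher and 16.4% lower over all tested gene models, and their median log2 fold change was 1.96 beside 0.01. The 8 were named by the study of these same libraries, so this contrast is not independent evidence. Other MADS-box genes that the study discusses were not examined.

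**Figure D1:**
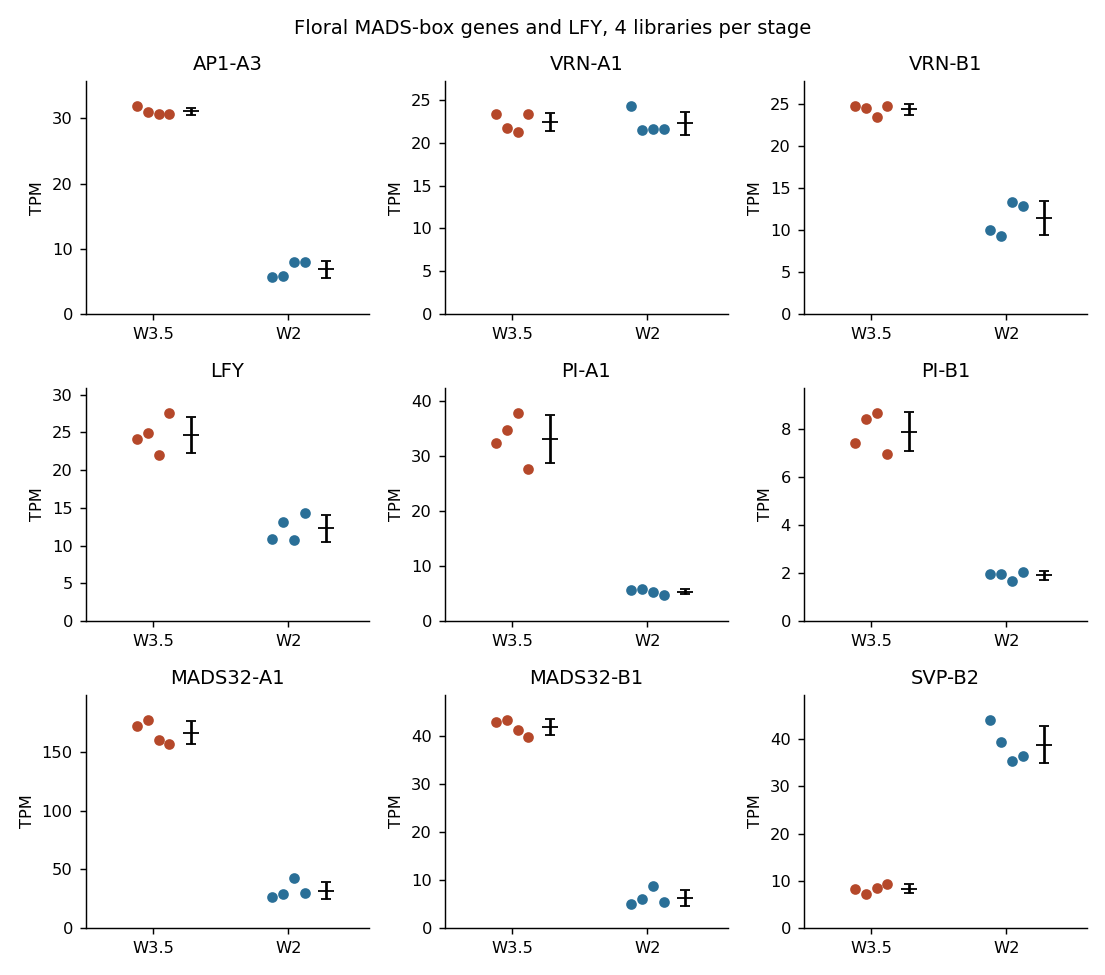
Transcript levels in TPM (y axis, each from 0) of 8 MADS-box genes and LFY in the 4 W3.5 libraries (left, red) and the 4 W2 libraries (right, blue). Points are libraries and the bar beside them is the mean ± SD (n = 4). The stages overlap for VRN-A1 only, at 21.3 to 23.3 TPM at W3.5 and 21.5 to 24.3 TPM at W2, and SVP-B2 is the only 1 of the 9 called lower at W3.5.

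Durum wheat carries an A-genome and a B-genome copy (homoeologs) of most genes, and 9 such pairs among the named genes were compared by the share of the pair's TPM that came from the A copy, which does not depend on library scaling. For VRN1 the A copy supplied 48.5%, 46.8%, 47.6% and 48.5% at W3.5, against 70.7%, 69.6%, 61.7% and 62.6% at W2. The pair was thus dominated by the A copy at W2 and near balance at W3.5. The lengths used were the spans in the reference annotation, so a deletion in the Kronos allele affects the share at both stages but not which stage is higher. For PI the A share was 79.8% to 81.4% at W3.5 and 69.4% to 76.0% at W2, the opposite direction. MADS32 (79.5% to 80.4% at W3.5, 82.7% to 84.4% at W2) and the sucrose synthase gene SUS2 (77.9% to 80.6% at W3.5, 82.4% to 87.0% at W2) had lower A shares at W3.5. RHT1 had a higher one (49.1% to 50.8% at W3.5, 46.3% to 48.0% at W2). In these 5 pairs every W3.5 library lay on 1 side of every W2 library, and an exact two-sided permutation test gave p = 0.0286 for each, the smallest p that 4 libraries against 4 can give. After Benjamini-Hochberg adjustment over the 9 pairs this became 0.0515, above 0.05. The study had already listed VRN1, RHT1 and TB1 as pairs whose copies diverge in expression in these same libraries. All 9 pairs were named by that study, so these tests are not independent evidence of a shift. For TB1, CLV3, photosystem I subunit IV and the helicase pair the stages overlapped, with exact p of 0.629, 0.257, 0.629 and 0.914.

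**Figure D2:**
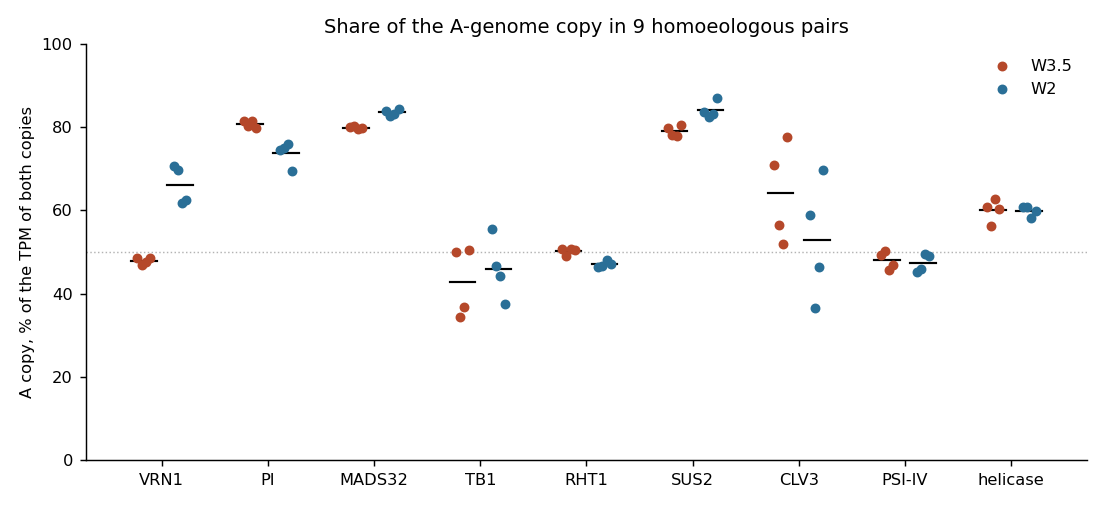
Share of the A-genome copy in the summed TPM of both copies (y axis, percent) for 9 homoeologous pairs, with W3.5 libraries (red) left of W2 libraries (blue). Points are libraries, black lines are means of 4 and the dotted line marks 50%. The VRN1 pair has the widest gap, with means of 47.8% at W3.5 and 66.2% at W2.

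The study also named growth regulators and metabolic genes. TB1 encodes a TCP transcription factor that restrains the outgrowth of axillary meristems. TB-A1 (TraesCS4A02G271300, 4A from 582839670 to 582841244) had 4.46, 4.12, 4.24 and 4.79 TPM at W3.5 and 3.01, 3.01, 2.34 and 1.62 TPM at W2 (log2 fold change 0.67 with an SE of 0.185, adjusted p = 0.00732 in edgeR), and TB-B1 (TraesCS4B02G042700, 4B from 30362277 to 30363341) had 4.46, 7.89, 7.27 and 4.73 TPM at W3.5 and 2.42, 3.45, 2.94 and 2.68 TPM at W2 (log2 fold change 0.93 with an SE of 0.216, adjusted p = 0.00194 in edgeR). Both copies were higher in every W3.5 library than in any W2 library, on 46 to 87 counts at W3.5 and 25 to 49 at W2. The call of TB-A1 was lost when any library other than W2 replicate 2 was left out, with log2 fold changes of 0.51 to 0.76, and that of TB-B1 when W3.5 replicate 2 or 3 was left out, at 0.79 and 0.84. The DELLA genes RHT-A1 (TraesCS4A02G271000) and RHT-B1 (TraesCS4B02G043100), repressors of gibberellin-driven growth, were both lower. RHT-A1 had 124 to 134 TPM at W3.5 and 139 to 150 TPM at W2 (log2 fold change -0.30, SE 0.0405), and RHT-B1, the copy with the semi-dwarfing allele, had 124 to 130 TPM at W3.5 and 156 to 168 TPM at W2 (log2 fold change -0.49, SE 0.0367). Because 1 other gene model overlaps the RHT-B1 span, its counts leave out the reads shared with that model.

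SUS2-A (TraesCS2A02G168200), which encodes a sucrose synthase, had 12.9 to 18.3 TPM at W3.5 and 20.3 to 30.3 TPM at W2, a log2 fold change of -0.84 with an SE of 0.111 (edgeR, adjusted p = 8.46e-06). SUS2-B (TraesCS2B02G194200) overlapped between the stages at 3.11 to 5.20 TPM at W3.5 and 4.35 to 5.49 TPM at W2 and was not called (log2 fold change -0.33, adjusted p = 0.0386, edgeR). It passed both tests without W3.5 replicate 3 (log2 fold change -0.46). The helicase genes TraesCS3A02G212600 and TraesCS3B02G242700 were higher at W3.5 by log2 fold changes of 0.34 (SE 0.0598) and 0.33 (SE 0.0559), and neither pair of stages overlapped in TPM. Photosystem I subunit IV, a marker of green tissue, had lower transcript levels at W3.5 for both copies. TraesCS5B02G496000 had 43.4 to 51.1 TPM at W3.5 and 55.3 to 66.2 TPM at W2 (log2 fold change -0.50, SE 0.0702), and TraesCS5A02G482800 had 38.3 to 49.5 TPM at W3.5 and 45.7 to 56.5 TPM at W2 (log2 fold change -0.47, SE 0.0869). The libraries of the 2 stages overlapped in TPM for the second copy. No other marker of green tissue was examined, and the part of green tissue in the other differences was not tested.

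The 3 named gene models of the CLAVATA-WUSCHEL stem-cell pathway were close to the detection limit at both stages. CLV3-A (TraesCS2A02G329300), for a signalling peptide that limits the stem-cell domain, had 10 to 24 counts per library at W3.5 and 5 to 16 at W2, and its log2 fold change of 0.70 had an SE of 0.389 (adjusted p = 0.164, edgeR). CLV3-B (TraesCS2B02G353000) had 6 to 12 counts at W3.5 and 3 to 12 at W2. TtWUSb (TraesCS2B02G775400LC), a low-confidence model for the homeobox gene WUSCHEL, had 0 to 4 counts at W3.5 and 1 to 7 at W2. CLV3-B and TtWUSb were too low to be tested. Since 2 other gene models overlap the TtWUSb span, its counts leave out the reads shared with them. For CLV3-A, the only 1 of the 3 tested, a difference was not detectable at these counts. In the libraries outside the fit, CLV3-A averaged 4.73 TPM at W3.0 and 3.82 at W3.25, beside 1.04 at W2 and 1.89 at W3.5. CLV3-B and TtWUSb also had their highest means at W3.0, at 1.53 and 0.267 TPM.

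Of the 73 gene models taken from the study, 71 were tested, of which 34 were higher at W3.5, 24 were lower and 13 were not called. The called share of 81.7% is read beside the 28.7% over all tested gene models, but the 73 are not independent evidence. Of them, 58 come from the network that the study built on genes chosen on these same libraries. The others were also named by the study of these libraries. The transcription factors of that network are known here by family only. Among families with several members, both ZF-HD genes rose. TraesCS2A02G305400 had 136 to 143 TPM at W3.5 and 42.0 to 57.7 TPM at W2 (log2 fold change 1.36, SE 0.0782), and TraesCS2B02G322200 had 122 to 140 TPM at W3.5 and 58.7 to 75.9 TPM at W2 (0.81, SE 0.0706). Both B3 genes rose as well. TraesCS4A02G055500 had the largest rise of the 71 tested gene models taken from the study, with 21.2 to 27.0 TPM at W3.5 and 2.20 to 5.24 TPM at W2 (log2 fold change 2.73 with an SE of 0.166, adjusted p = 6.47e-10 in edgeR).

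The SPL family, regulators of phase change and inflorescence branching, split. TraesCS2A02G232400 had 105, 110, 97.8 and 95.7 TPM at W3.5 and 20.0, 23.6, 27.8 and 21.6 TPM at W2 (log2 fold change 1.99, SE 0.0789), and TraesCS2B02G250900 had 157, 155, 142 and 140 TPM at W3.5 and 43.5, 46.0, 55.4 and 38.0 TPM at W2 (1.55, SE 0.0807). For these 2 the stages were far apart. The other SPL genes had log2 fold changes of -0.41 (TraesCS7A02G246500), -0.27 (TraesCS6A02G110100) and -0.24 (TraesCS7B02G144900, not called), and the first of these was lost without W3.5 replicate 1 or 2 or W2 replicate 1 or 3, the second without W3.5 replicate 3 or W2 replicate 2, and both with library totals. The last passed both tests without W2 replicate 4 (-0.29).

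Of the 7 TCP genes, which include TB1, 4 were lower at W3.5, against 16.4% of all tested gene models. TraesCS6A02G306500 had 15.8 to 21.6 TPM at W3.5 and 38.2 to 49.4 TPM at W2 (log2 fold change -1.30, SE 0.0832). TraesCS6B02G334900 had 10.9 to 16.7 TPM at W3.5 and 29.3 to 34.7 TPM at W2 (-1.33, SE 0.0917), and the low-confidence model TraesCS7A02G244300LC had 6.30 to 11.7 TPM at W3.5 and 23.9 to 27.6 TPM at W2 (-1.68, SE 0.122). The only TCP rises were the TB1 copies.

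The bZIP list also held large falls. TraesCS5B02G332300 had 8.43, 9.09, 6.93 and 11.4 TPM at W3.5 and 46.7, 42.6, 40.9 and 41.7 TPM at W2 (log2 fold change -2.42 with an SE of 0.104, adjusted p = 7.9e-12 in edgeR), and TraesCS5A02G332000 had 10.1 to 17.2 TPM at W3.5 and 43.4 to 53.8 TPM at W2 (-1.99, SE 0.111). Another bZIP gene, TraesCS5A02G508600, rose, with 177 to 202 TPM at W3.5 and 98.7 to 122 TPM at W2 (0.63, SE 0.0614). GATA factors fell for TraesCS4B02G374400 (1.63 to 4.60 TPM at W3.5, 9.66 to 13.6 TPM at W2) and TraesCS5A02G538600 (3.70 to 8.65 TPM at W3.5, 11.9 to 17.3 TPM at W2), rose for TraesCS6A02G239200 (log2 fold change 0.36, SE 0.0626) and were not called for the other 3. In the bHLH list 4 of 6 genes rose, against 12.4% of all tested gene models, led by TraesCS3A02G350600 with 21.4 to 31.7 TPM at W3.5 and 6.13 to 9.45 TPM at W2 (1.72, SE 0.162), and TraesCS5A02G264800 fell, with 3.68 to 4.63 TPM at W3.5 and 11.3 to 17.4 TPM at W2 (-1.86, SE 0.123). The bHLH rise of TraesCS5A02G292900 (0.56, SE 0.101) lost its call without W3.5 replicate 2 or 3.

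Families with 1 or 2 named members gave single values. The YABBY gene TraesCS2A02G386200, of a family that sets polarity in lateral organs, had 69.2 to 80.2 TPM at W3.5 and 27.0 to 34.0 TPM at W2 (log2 fold change 1.21, SE 0.0665). The NAC gene TraesCS7A02G247600 had 27.4 to 31.8 TPM at W3.5 and 5.66 to 10.4 TPM at W2 (1.69, SE 0.127), and the AP2 gene TraesCS1A02G314200 had 58.4 to 72.9 TPM at W3.5 and 24.4 to 31.96 TPM at W2 (1.11, SE 0.0955). The heat shock factor TraesCS5A02G237600 (-0.89, SE 0.0572) and the HD-ZIP gene TraesCS5B02G378000 (-0.79, SE 0.0773) fell. The ERF gene TraesCS1B02G326500 rose (1.29, SE 0.145), and the small fall of the other ERF gene, TraesCS3B02G042400 (-0.23, SE 0.0597), was lost without any 1 of W3.5 replicates 1, 2 and 3 and W2 replicates 2 and 4, and with library totals. For auxin response factors (ARF), TraesCS3B02G486000 and TraesCS3A02G449300 rose by 0.31 and 0.29, TraesCS2B02G578500 fell (-0.67, SE 0.0507) and TraesCS3A02G442000 was not called (0.06), although its W3.5 libraries (210 to 242 TPM) lay above its W2 libraries (184 to 202 TPM). With library totals it passed both tests (0.15).

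**Figure D3:**
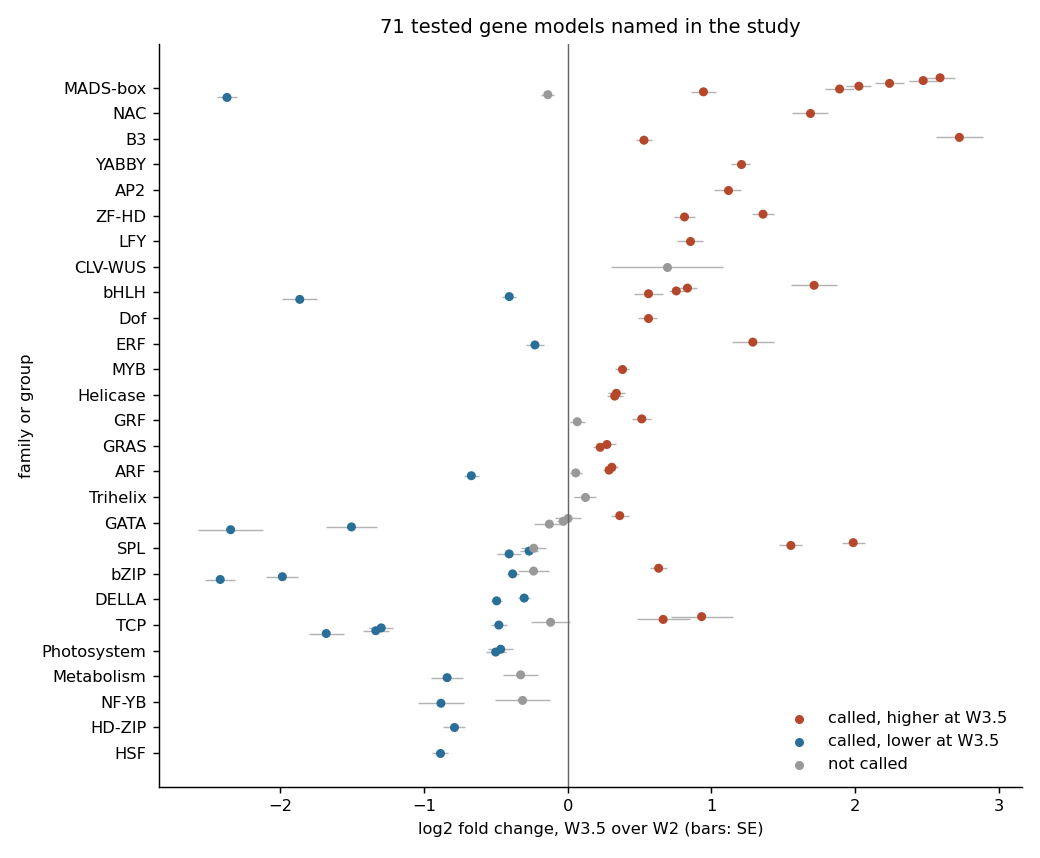
Log2 fold change of W3.5 over W2 (x axis, bars are SE) for the 71 tested gene models named in the study, by family or group (y axis, ordered by median). Red points were called higher at W3.5 (34), blue points lower (24) and grey points not called (13). MADS-box genes have the highest median, 1.96, and both signs occur in the MADS-box, bHLH, ERF, ARF, GATA, SPL, bZIP and TCP groups.

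The largest fitted changes came from gene models that were on at one stage and at or near 0 counts at the other, and the annotation used here pairs none of them with a gene name. TraesCS7B02G158600 (7B from 215000979 to 215006781) had 6.51, 6.20, 6.47 and 4.997 TPM at W3.5 and 0 in all W2 libraries. Its 1391 counts over the W3.5 libraries make it at least 438-fold higher at W3.5, taking 3 counts over the W2 libraries as the floor. TraesCS5B02G286100 (5B from 471852224 to 471860110) had 1564 counts at W3.5 and 1 at W2, which is 1480 times as many per library total (95% interval from counting error, 265 to 58400). Both were close to 0 at W3.0 (0.026 and 0.003 TPM on average) and reached 1.54 and 1.68 TPM at W3.25. The largest falls were in TraesCS7A02G161300 (7A from 117822243 to 117823777), with 0 counts at W3.5 and 4.50, 8.52, 4.08 and 14.1 TPM at W2 (at least 166-fold lower at W3.5), and TraesCS4A02G383100 (4A from 660984564 to 660986074), with 0 counts at W3.5 and 2.32, 1.22, 1.78 and 1.96 TPM at W2 (at least 37.4-fold lower). Such switches were rare. In all, 15 gene models had 0 counts in every W2 library and at least 10 in every W3.5 library, and 4 showed the reverse.

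Called gene models were spread over all 14 chromosomes, with 10.2% (6B) to 14.1% (1A and 3A) of tested models higher at W3.5 and 14.4% (6A) to 18.3% (4B) lower. The subgenomes were alike in this respect, at 12.9% higher and 15.9% lower for A and 11.9% higher and 16.8% lower for B. Low-confidence gene models differed in balance from high-confidence ones, since 10.8% of them were higher and 6.22% lower at W3.5, against 12.8% higher and 18.98% lower for high-confidence models. All following shares are for high-confidence models.

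Gene span went with direction. Tested models were sorted into 5 bins of equal size by span. In the shortest bin (up to 1500 bp) 9.52% were higher and 25.1% lower at W3.5, whereas in the longest bin (from 5950 bp) 18.2% were higher and 10.7% lower. The median log2 fold change ran from -0.11 in the shortest bin to 0.05 in the longest. With library totals the same order held for these high-confidence models, with 12.6% higher and 20.8% lower in the shortest bin and 31.7% higher and 6.35% lower in the longest. The shape differed on the main scale once low-confidence models were included. The shortest bin then had 7.80% higher and 15.6% lower, with a median of 0.01. Falls were most frequent in bin 2, at 21.05%, and the longest bin had 17.98% higher and 10.2% lower. The counts cover introns, and the share of intron reads was not tested. The share of falls was largest in the most abundant of 5 bins by mean CPM, where 29.9% were lower at W3.5, against 14.1% to 16.7% in the other bins. With library totals 19% were lower in that bin, against 10.6% to 15.2% in the others, and 28.2% were higher, so rises then outnumbered falls there. On the main scale the bin's median log2 fold change was only -0.05. Its called models had a median absolute log2 fold change of 0.29, against 1.75 in the least abundant bin. Smaller changes were thus called at high counts, so these shares do not compare sizes of change between CPM bins. Direction also went with position. With each chromosome cut into 10 bins of equal length, 16.2% and 15.9% were higher and 13.1% and 13.3% lower at W3.5 in bins 4 and 5, while in bin 10 11.1% were higher and 21.9% lower. With library totals rises exceeded falls in all 10 bins, narrowly in bin 10 (17.1% higher, 16.8% lower) and most in bins 4 and 5 (27.2% and 27.4% higher, 8.59% and 8.88% lower). The median span of all tested models was 3465 and 3753 bp in bins 4 and 5 and 3214 bp in bin 10, so span and position varied together. These are descriptions of one fit, and no test was made between classes.

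**Figure D4:**
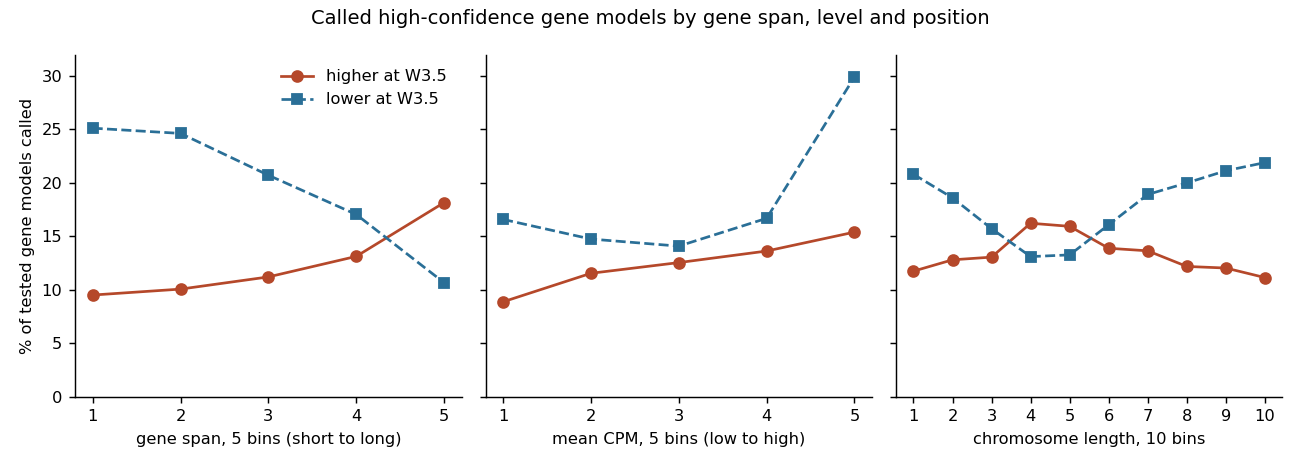
Percent of tested high-confidence gene models called higher (red circles) or lower (blue squares) at W3.5, by bin of gene span, mean CPM and position along the chromosome (x axes). Falls drop from 25.1% to 10.7% from short to long spans while rises climb from 9.52% to 18.2%, and on this TMM scale rises exceed falls only in the longest span bin and in chromosome bins 4 and 5. With library totals they exceed falls in span bins 3 to 5, CPM bins 2 to 5 and all chromosome bins.

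Neighbouring gene models sometimes changed together. Among tested models in genome order, 17 runs of at least 5 consecutive models were all called higher at W3.5 and 33 runs were all called lower. The longest run held 9 models, 5 of them low-confidence, on 3A from 729182487 to 729578863. Their summed counts were 1627, 1783, 2110 and 1539 in the W3.5 libraries and 252, 262, 263 and 286 in the W2 libraries, and their log2 fold changes ran from 1.03 to 6.63. A run of 6 models on 3B from 112464946 to 113512557 fell together, with 192, 328, 458 and 239 summed counts at W3.5 and 1538, 2376, 2480 and 3502 at W2 and log2 fold changes of -3.69 to -2.83. These runs were picked after their values were seen, and whether their members are near-identical copies, whose reads the unique-mapping filter would drop, was not tested.

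The libraries that stayed out of the fit show when the levels moved. Since the gene models were chosen on W2 and W3.5, the values are a description only. For gene models called higher at W3.5, the median difference of log2 CPM from the W2 mean was -0.17 in W1 libraries, 0.36 in W3.0 libraries, 0.44 in W3.25 libraries and 0.53 in W3.5 libraries. For those called lower it was 0.23 in W1 libraries, -0.34 in W3.0, -0.40 in W3.25 and -0.52 in W3.5 libraries. In both sets the step from W2 to W3.0 was therefore larger than that from W3.0 to W3.5. The first of these steps also covers more of the Waddington scale, and the change per unit of that scale was not compared. Single genes differed from this course. PI-A1 averaged 4.94 TPM in W1, 5.39 in W2, 6.77 in W3.0, 13.8 in W3.25 and 33.2 in W3.5 libraries, with SDs of 0.574, 0.536, 0.413, 1.95 and 4.34 over 4 libraries each, so most of its rise came after W3.0, although every W3.0 library (6.21 to 7.14 TPM) already lay above every W2 library (4.69 to 5.86 TPM). Some genes were highest in between. The NF-YB gene TraesCS6B02G316600 averaged 0.122 TPM in W1, 20.7 in W2, 70.6 in W3.0, 33.7 in W3.25 and 12.5 in W3.5 libraries, and the GATA gene TraesCS1A02G418200, with a log2 fold change of 0.00 between W3.5 and W2, averaged 6.16 TPM in W1, 23.8 in W2, 68.3 in W3.0, 39.2 in W3.25 and 26.4 in W3.5 libraries. VRN-A1 averaged 8.12 TPM in W1, 22.3 in W2, 28.2 in W3.0, 25.5 in W3.25 and 22.4 in W3.5 libraries.

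**Figure D5:**
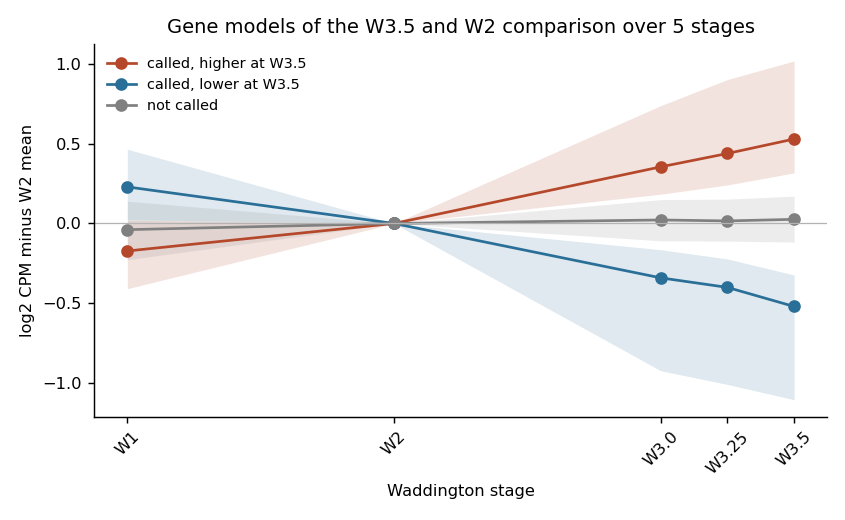
Median difference of log2 CPM from the W2 mean (y axis) at the 5 Waddington stages (x axis, to scale) for the 5572 gene models called higher at W3.5 (red), the 7372 called lower (blue) and those not called (grey). Bands run from the lower to the upper quartile of gene models. The medians of the called sets are 0.36 and -0.34 at W3.0 and 0.53 and -0.52 at W3.5.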

How the data were processed

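The authors sequenced RNA from pooled apices as single reads, trimmed them with Fastp, aligned them with STAR 2.7.5 to the A and B chromosomes plus unanchored scaffolds of IWGSC RefSeq v1.0, and counted them with featureCounts over whole gene spans of annotation v1.1, at a mapping quality minimum of 40 and without a strand setting. The deposited values are raw counts, not normalized. Reads shared by overlapping gene models are left out, which also concerns TraesCS3B02G042400 and TraesCS2B02G578500, each overlapped by 1 other model. Models of the D genome (79047, all 0) were left out.

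Counts of the 8 libraries were tested in R 4.3.3 with edgeR 4.0.16 (filterByExpr with a minimum count of 10 and minimum total of 15, TMM, quasi-likelihood test, stage only) and DESeq2 1.42.0, both Benjamini-Hochberg adjusted. The SE was derived from the log2 fold change and edgeR's F statistic, and single-gene p-values are edgeR's. Counting intervals and floors cover counting error only. On simulated counts for this comparison (44558 genes), 32 of 50 genes changed 1.5-fold, 43 of 50 changed 2-fold and 49 of 49 changed 4-fold were recovered, with 4 false calls. The simulation changed far fewer genes than the 12944 called in the data, so its recovery and false calls cannot be carried over to them. No 2 replicates were duplicates.

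Named genes are 73 gene models from the study, plus the 2 largest called rises and the 2 largest called falls. The 73 have an ID in the study's text or the readable part of its network, or are copies of VRN1, RHT1, TB1 or SUS2. They are not complete families, and other members that the study discusses were left out. The rises and falls were ranked among gene models with no overlap between stages and 10 counts or more in each library of the higher stage. Members and lists were chosen with earlier results of these data known, and the homoeolog shares, gene runs and library-total scaling were added after seeing the data. The RefSeq gene table (Svevo.v1 assembly, 63993 genes) matched 0 of the IDs, so product names and sequences were not used here. Alternatives were other scalings, filters, tools and thresholds, all 20 libraries, a replicate block and each library left out. Figures used Python 3.11.15 and matplotlib 3.10.9.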

Additional observations from a re-analysis of the deposited data

Results flagged for a closer look

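Among 156 groups of 4 libraries checked (77 named gene models and the library totals at each stage), 8 held a library far from the other 3 by Dixon's criterion, which chance alone gives in about 1 group in 20. At W3.5 the library apart was the lowest for AP1-B1 (taken as VRN-B1, TraesCS5B02G396600), at 23.4 TPM, and for the Trihelix gene TraesCS4B02G019200, at 43.0 TPM. It was the highest for CLV3-B (TraesCS2B02G353000), at 1.56 TPM, and for the GATA gene TraesCS4B02G374400, at 4.60 TPM. At W2 the library apart was the highest for VRN-A1 (TraesCS5A02G391700), at 24.3 TPM, for SUS2-B (TraesCS2B02G194200), at 5.49 TPM, and for TraesCS5B02G286100, at 0.0123 TPM, which is a single read. It was the lowest for the photosystem I subunit IV gene TraesCS5A02G482800, at 45.7 TPM.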

How the results depend on the processing

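Counts of called gene models stayed within 1.5 times the main counts (12944 in all, 5572 higher and 7372 lower at W3.5) under edgeR alone, DESeq2 alone, all 20 libraries in 1 fit, both other filters, both other size factors and an adjusted p of 0.05. The other size factors were changed in edgeR only, and the DESeq2 results were kept from the main fit. Their counts could therefore not exceed the DESeq2 calls and do not show how both tools respond to scaling. A 2-fold minimum left 3631, of which 1478 were higher and 2153 lower. Library totals alone gave 8849 higher and 5377 lower, and the cause was not tested. With 1 library left out, 10668 to 11599 were called, 4382 to 4807 higher and 6286 to 6792 lower. Replicate numbers did not pair the samples, since deviations of same-numbered libraries correlated at -0.0151 to 0.0365. With the replicate block 9003 were called, 3515 higher and 5488 lower, and it ended the calls of TB-A1 (TraesCS4A02G271300), TB-B1 (TraesCS4B02G042700), TraesCS7A02G246500 and TraesCS5A02G292900. Signs turned only for gene models that were not called. TraesCS1A02G418200 was at -0.001 with all 20 libraries and, with 1 library left out, ran from -0.088 to 0.063. TraesCS2B02G392900 ran from -0.241 to 0.027 with 1 library left out, and TraesCS2B02G406400 was at 0.062 with library totals. TraesCS2A02G495400 passed both tests without W2 replicate 2 (-0.343). All 20 libraries in 1 fit also ended the call of TraesCS3B02G042400. The 3 named CLAVATA-WUSCHEL gene models had 24 counts or fewer per library, and 1 of them was tested.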

Other observations

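The first 13 tested gene models of chromosome 1A, from 11085 to 403751, differed in their summed level between libraries of 1 stage, and how many of the 13 carried this was not tested. The sum was 45.9, 51.3, 44.2 and 92.3 CPM in the W3.5 libraries and 46.3, 40.9, 20.5 and 32.7 CPM in the W2 libraries, so that W3.5 replicate 4 had the highest and W2 replicate 3 the lowest value of the 8. The next 13 tested models, from 1144333 to 2441540, were even, at 374 to 390 CPM in the W3.5 libraries and 335 to 357 CPM in the W2 libraries. Of the first 13 models, 1 was called higher at W3.5 and 0 lower by both tools. The difference was noticed in the data and the cause was not tested.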
